A study of Mus musculus with 2 samples.

Results

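Genes of the primary and the motile cilium were followed in a map of histone H3 trimethylated at lysine 4 (H3K4me3), a mark of the starts of active and poised genes. The genes were the protein-coding genes of the RefSeq mouse table whose symbols begin with Ift, Bbs, Dnah, Dnai, Tekt, Rsph or Rfx followed by a number, plus Foxj1. That rule found 58 of 21887 protein-coding genes: 22 transport genes (14 Ift and 8 Bbs), 27 motile genes (15 Dnah, 7 Rsph and 5 Tekt) and 9 regulators (8 Rfx and Foxj1). No gene of the table bears a Dnai symbol, so the dynein intermediate chains are given further down under the symbols Dnaic1, Dnaic2 and Nme8.

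The cells were mouse neural progenitors of adult origin, kept in N2 medium supplied with EGF and bFGF. The labels record no treatment and name no strain, genotype, sex or number of animals. One chromatin immunoprecipitation library for H3K4me3, titled "con" in the labels, was sequenced beside 1 input library, which serves the peak caller as its background. With 1 library of each kind there is no error between cultures, no condition is compared with another, and genes are not replicates, so shares carry exact binomial intervals for counting error only and no p-value is given.

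Cilia are microtubule-based projections. Neural progenitors carry a primary cilium, an antenna for hedgehog and other signals, and this cilium is assembled and supplied by intraflagellar transport (IFT) trains and by the BBSome, a coat of Bardet-Biedl syndrome (BBS) proteins that moves membrane cargo. Motile cilia, found in the brain on the ependymal cells that line the ventricles, use the same transport and add dynein arms that power bending, radial spokes that govern the beat and tektin filaments within the doublet microtubules. RFX transcription factors bind X-box sequences at genes of both kinds of cilium, and FOXJ1 drives the motile set.

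The authors kept 18156769 H3K4me3 tags and 17831241 input tags and listed 19265 peaks, with a median of 198 tags. The weakest listed peak held 13 tags, so a gene without a peak is one where nothing was called at this depth. In a bulk culture, few cells with the mark and little mark per cell cannot be told apart. The labelled cell type was checked against listed markers. All 8 genes of neural stem and progenitor cells had a peak over the gene plus 1 kb, against 61.5% of all protein-coding genes. Among them were Sox2 (fold enrichment 49.2) and Nes (44.8). At the start 6 of the 8 had one, against 57.5% of all coding genes. Pax6 (31.8) was marked off the start, and Msi1 (52.1), without a RefSeq start, away from both gene ends. The neuronal markers had a peak in 3 of 5 (Map2 at 38.3, Syt1 at 22.6 and Tubb3 at 13.02, with none at Dcx and Rbfox3). The microglial ones had it in 1 of 5 (P2ry12, at most 10.9). The endothelial ones had it in 2 of 4 (Kdr, 13.3, and Pecam1, 8.68, away from both gene ends). The ependymal markers had it in 6 of 8: the members Foxj1, Tekt1 and Rsph1, given further down, Mia (42.1, off the start), Dynlrb2 (12.2) and Cfap126 (8.62), with none at Tmem212 and Ccdc153.

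All 22 transport genes were marked, and fewer of the motile genes were. A gene was counted as marked when at least 1 peak overlapped it or the 1 kb on either side by 1 bp or more, a rule met by 61.5% of all protein-coding genes. The count was 22 of 22 transport genes (100%, 95% interval 84.6 to 100), 16 of 27 motile genes (59.3%, interval 38.8 to 77.6) and 7 of 9 regulators (77.8%, interval 39.99 to 97.2). The motile share is thus near that of coding genes as a whole. Without peaks that also overlap the same window of another coding gene, 14 of the 22 transport genes stayed marked (63.6%), against 46.4% of all coding genes, and 13 of the 27 motile genes did.

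In 6 of the 16 marked motile genes no peak lay at the start. When the peak had to lie within 1 kb of an annotated start, 57.5% of all coding genes were marked. All 22 transport genes passed (100%, interval 84.6 to 100), as did 7 of 9 regulators, but 10 of 27 motile genes (37.0%, interval 19.4 to 57.6). These intervals treat genes as independent, which gene copies and shared peaks are not, so the classes were not compared by them. Without peaks at the start of another coding gene, 17 of 22 transport genes (77.3%) and 10 of 27 motile genes stayed marked. The share of all coding genes was then 46.1%. Starts came from RefSeq for 51 of the 58 genes, and for Foxj1, Ift80, Ift81, Ift122, Rsph1, Rsph4a and Dnah3 either end of the gene was taken instead. Leaving those 7 out gave 19 of 19 transport genes and 8 of 24 motile genes. Dnah5, counted as having no start peak, had a weak peak at the outer end of its gene entry, far from the start used.

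**Figure D1:**
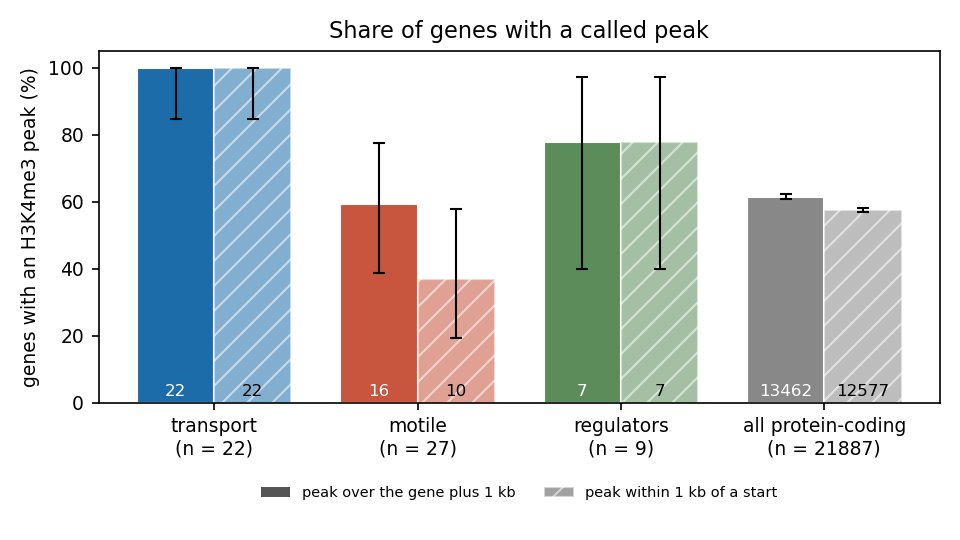
Share of genes with a called H3K4me3 peak (y axis, %) in the transport, motile and regulator genes and in all protein-coding genes, for a peak over the gene plus 1 kb (plain bars) and within 1 kb of a start (hatched bars). Error bars are exact 95% binomial intervals over genes and digits in the bars are gene counts; the motile bar drops from 59.3% to 37.0% when the start is required, and the transport bar stays at 100%.

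Among the motile genes, Dnah genes are long, from 65.5 kb to 382 kb with a median of 238 kb, and a peak anywhere over such a gene is not the same as one at its start. Of the 4162 coding genes of at least 60 kb, 74.2% had a peak at a start, and of the 990 of at least 200 kb, 70.8% did. Of the 15 Dnah genes 4 had one (26.7%, interval 7.79 to 55.1). The part of gene length in these shares was not tested.

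The transport genes carried start peaks of ordinary promoter strength. Fold enrichment here is the authors' value for each peak over the local background from the input. It need not follow the tag count: the start peaks of Bbs1 and Bbs7 both had 36.9, from 139 and 196 tags. Over the 12577 coding genes with a start peak, the median was 39.1 with quartiles of 29.7 and 46.3. Over the 22 transport genes it was 36.9 (quartiles 34.1 and 41.2, range 27.5 to 52.8), with a median of 263 tags over 1744 bp, against 336 tags over 2189 bp for coding genes.

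In the IFT-B complex, which carries cargo towards the tip, the strongest peak lay at an end of Ift80 (52.8, 1059 tags, 5225 bp, mm10 chr3:69003285-69008509), and it also covered the start of Smc4, a condensin gene, so it cannot be given to 1 of the pair. Ift46 followed with 50.2 from 280 tags over 1366 bp (chr9:44772710-44774075). Ift88, whose loss abolishes cilia in mice, had 46.3 from 326 tags. Ift27 and Ift22, which encode small GTPase-like subunits, had 41.2 and 33.99, and a second, weaker start peak of 21.7 (75 tags) lay just before Ift27. Ift20, a subunit that also sits at the Golgi, had 35.9, in a peak that also covered the start of Tnfaip1 and had its summit before the Ift20 start (-605 bp). Ift52 had 38.2, Ift172 35.4, Ift81 34.5 and Ift57 31.7 (chr16:49698463-49700628). Taking the strongest start peak of each, these values lay between the quartiles of coding start peaks, apart from those of Ift46 and Ift80 above them.

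Ift74, the partner of Ift81 in tubulin binding, was marked at 2 places. The gene's own annotated start carried the lowest value of the transport genes (27.5, 147 tags, chr4:94613827-94615565). A stronger peak lay at the outer end of the gene in the RefSeq gene table (49.97, 592 tags), where it also covers the start of Plaa. In the IFT-A complex, which returns material to the base, Ift140 had 44.1 (949 tags), Ift43 40.05 (210 tags) and Ift122 32.4 (294 tags, chr6:115852234-115854520). The peak at Ift140 had its summit before the start (-1675 bp) and is shared with Cramp1l, and that at Ift122 is shared with Mbd4.

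The start peaks of the 8 Bbs genes lay within the range of the IFT genes in fold enrichment, with 139 to 379 tags against 147 to 1059. Of the BBSome subunits, Bbs5 had the highest value (49.9, 243 tags, 1492 bp, chr2:69646616-69648107) and Bbs9, the longest transport gene at 413 kb, the lowest (28.8, 216 tags, chr9:22475098-22476845). Bbs1 and Bbs7 both stood at 36.9, Bbs4 at 34.7 and Bbs2 at 33.4. Bbs10 and Bbs12, chaperonin-like proteins that help assemble the BBSome, had 40.9 and 38.6, the latter in a peak shared with Cetn4. A further peak near Bbs7, of 51.4 and 562 tags (chr3:36569687-36572977), lay past its far end at the start of the cyclin gene Ccna2. In all, 5 of the 22 transport start peaks (22.7%) also lay at the start of another coding gene, close to the 20.7% among all coding genes with a start peak.

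The start peaks of motile genes were weaker, narrower and held fewer tags. Over the 10 genes with one, the median fold enrichment was 16.6 (range 6.51 to 27.1), with a median of 74.5 tags over 1074 bp. All 10 lay under the lower quartile of coding start peaks (29.7), as did 2 of the 22 transport genes and 1 of the 7 regulators. The highest motile value, 27.1 at Rsph3a, was just under the lowest transport value, 27.5 at Ift74, so these 10 and the 22 did not overlap in this measure. The 10 did overlap the transport genes in tags (28 to 210 against 139 to 1059) and in length (703 to 1624 bp against 1212 to 5225 bp). The gap holds only for symbols that the rule matched. Of the dynein intermediate chains outside it, Dnaic1 had 46.3, within the transport range, at a start shared with Fam219a, and Dnaic2 had 11.7.

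**Figure D2:**
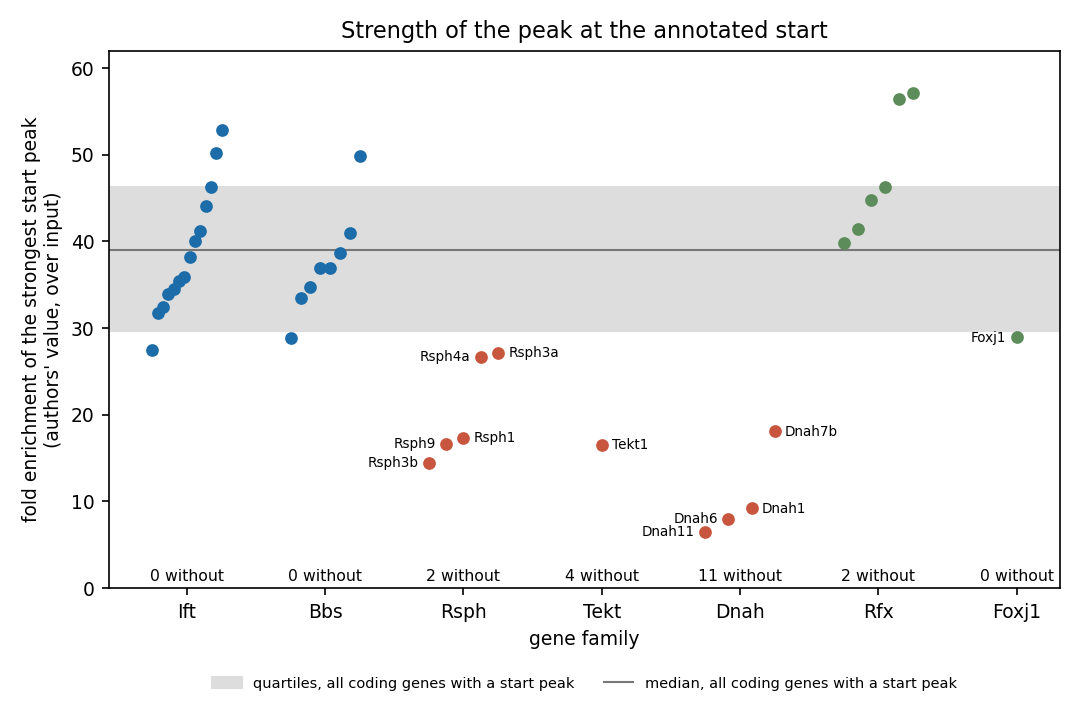
Fold enrichment over input of the strongest start peak (y axis, linear, authors' value) for each gene, by family; blue points are transport genes, red motile genes and green regulators, and the digits at the foot count genes without a start peak. The grey band and line give the quartiles and median of 12577 coding genes; all motile points lie below the band, between 6.51 and 27.1.

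Radial spoke genes had the largest marked share of the motile families, with a start peak at 5 of 7 (71.4%, interval 29.0 to 96.3). The share of all coding genes, 57.5%, lies within that interval. For Rsph1 and Rsph4a, which have no RefSeq start, this was a peak at either end of the gene. Rsph3a, a spoke stalk gene, had the strongest (27.1, 210 tags, chr17:7944719-7946342), followed by Rsph4a, a spoke head gene (26.7, 140 tags, chr10:33904702-33905757). Rsph1 (17.4, 69 tags, chr17:31276664-31277652) and Rsph9 (16.6, 95 tags, chr17:46143502-46144742), also of the spoke head, and Rsph3b (14.5, 84 tags, chr17:6948064-6949361) were lower. Rsph3a and Rsph3b are paralogs, and reads that fit both could be placed at either, which was not tested.

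Rsph6a, the sperm paralog of Rsph4a, and Rsph14 were counted as marked only through a neighbour. The peak assigned to Rsph6a (43.4, 367 tags, chr7:19075446-19077624) did not overlap the gene and lay at the start of Dmwd. The peak inside Rsph14 (33.99, 304 tags, chr10:74966284-74968444) lay 65050 bp from its start, at the start of Gnaz, a G protein gene nested there.

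Dynein heavy chain genes, the motors of the axoneme, held the 3 lowest fold enrichments among motile start peaks, at Dnah11, Dnah6 and Dnah1. Dnah7b, an inner arm chain, stood above all but Rsph3a and Rsph4a, with 18.1 (80 tags, chr1:46066299-46067410). Dnah1, another inner arm chain, had 9.20 from 56 tags (chr14:31323316-31324406). Dnah6 had 7.96 from 28 tags (chr6:73221648-73222350), in a peak that ended just before the start. Dnah11, the outer arm chain needed for left-right asymmetry of the body, had 6.51 from 30 tags (chr12:118198498-118199243), and 0.413% of the coding genes with a start peak had a lower value. The peaks of Dnah6 and Dnah11 had a -log10 p of 9.15 and 9.84, so both drop out at a minimum of 10, which leaves 8 motile genes with a start peak.

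Dnah2 and Dnah5 had peaks over the gene but not at the start that RefSeq's promoter table gives. In Dnah2, an inner arm chain, a peak of 164 tags over 1548 bp had its summit 2082 bp into the gene and one of 90 tags (15.2) lay 21728 bp in. Its strongest (39.3, 932 tags, 6806 bp, chr11:69414081-69420886) sat at the other end over the start of Kdm6b, a histone demethylase gene. In Dnah5, a main outer arm chain, peaks of 9.95 (31 tags) and 20.2 (163 tags, chr15:28158368-28159710) lay near the outer end of the gene table's entry. Their summits were 128 and 4071 bp from that end, and at -48784 and -44841 bp from the promoter table's start. Dnah3, Dnah7a, Dnah7c, Dnah8, Dnah9, Dnah10, Dnah12, Dnah14 and Dnah17 had no peak within 1 kb of the gene.

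Of the tektin genes 1 in 5 had a start peak, against 57.5% of all coding genes. Tekt1 carried 50 tags at a fold enrichment of 16.6 (chr11:72361527-72362428). Tekt4 had a peak of 14.9 (57 tags, chr17:25474245-25475040) at 3137 bp into the gene. For Tekt2 the peak (36.2, 271 tags, chr4:126320352-126322137) lay at its far end over the start of Adprhl2, 4053 bp from the nearest Tekt2 start. Tekt3 and Tekt5 had none. Across the motile set, then, the strongest peak lay away from the start in 6 of the 16 marked genes, and in 4 of these 6 (Rsph6a, Dnah2, Tekt2 and Rsph14) it lay at the start of another coding gene; those 4 values, 33.99 to 43.4, are the highest of the class.

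**Figure D3:**
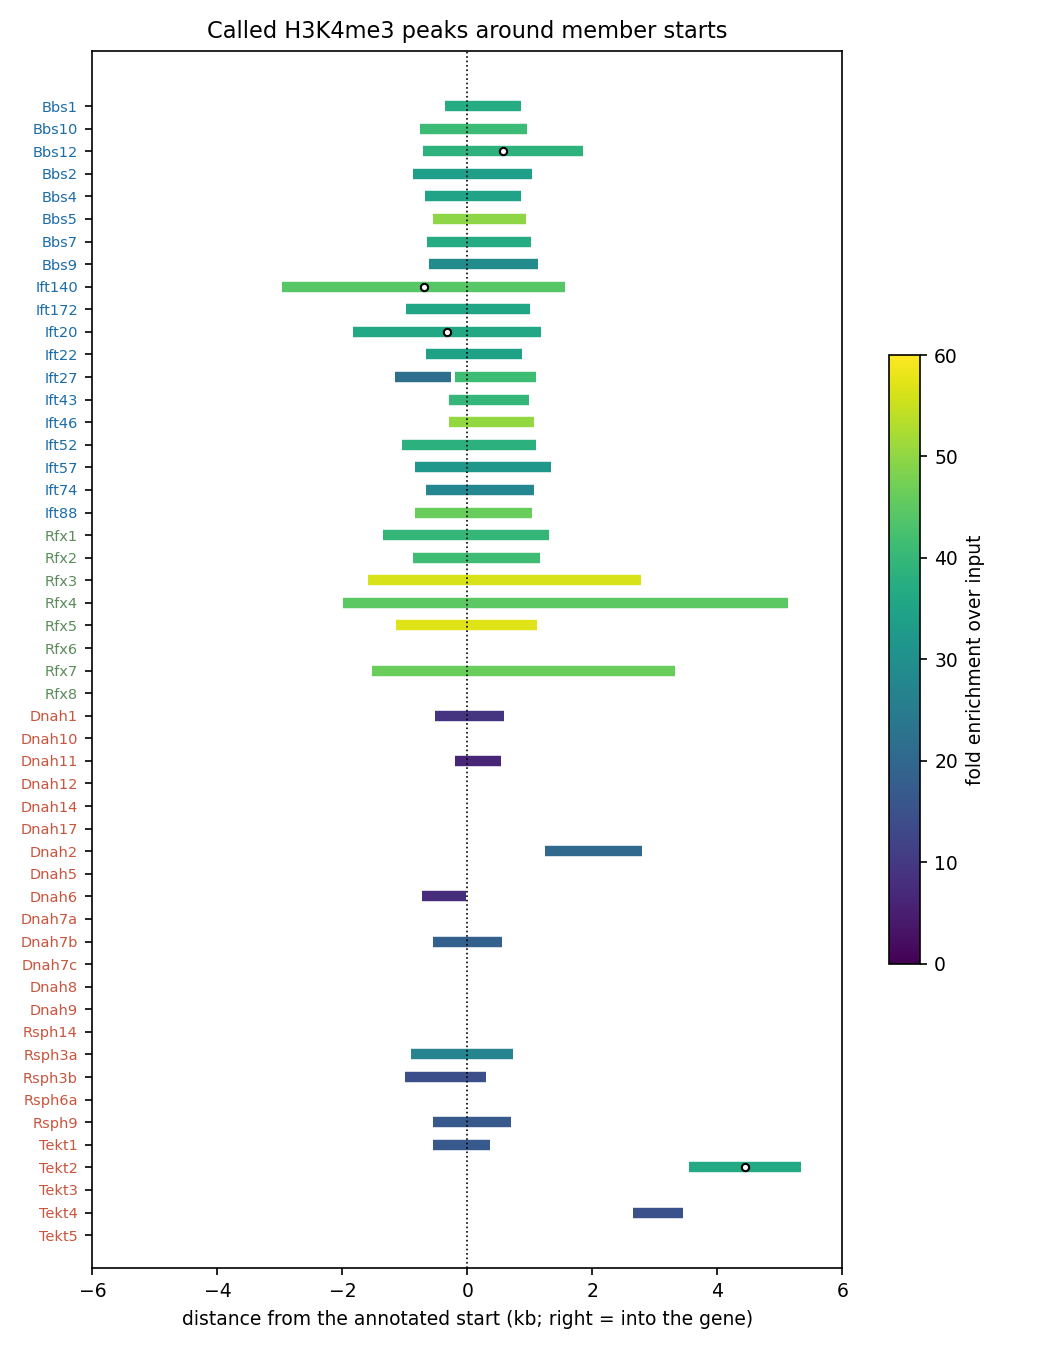
Called peaks within 6 kb of the most upstream start of each member with a RefSeq start (x axis, kb, positive into the gene); bar colour is fold enrichment over input, a white circle marks a peak that also lies at the start of another coding gene, and symbols are blue for transport, green for regulators and red for motile genes. Transport rows each have a bar across the start; among the motile rows most are empty, and the bars at Dnah2, Tekt4 and Tekt2 lie off the start.

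At the annotated starts, transport summits lay a median of 180 bp into the gene, in 15 of 19 genes downstream of the start, and 17 of 19 were within 500 bp of it. The peaks reached a median of 679 bp before and 1040 bp after the start. For the 8 motile genes with a RefSeq start, the median summit was 102 bp before the start (value -102 bp), 3 of 8 lay downstream, and the peaks reached a median of 550 bp before and 551 bp after it.

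Regulators of cilium genes included the widest peak over any member. Rfx4, an RFX factor of the developing and adult brain, lay under 7117 bp with 1178 tags (44.8, chr10:84754060-84761176), which ran 5128 bp into the gene. Rfx3, needed for primary and motile cilia alike, had 56.4 (805 tags, 4365 bp, chr19:28008393-28012757) and 2 weak internal peaks of 10.1 and 6.51. Rfx7 had 46.3 (732 tags, 4851 bp, chr9:72530719-72535569), Rfx2, which with Rfx3 serves multiciliated cells, 41.4 (253 tags, chr17:56829843-56831885) and Rfx1 39.8 (425 tags, chr8:84065493-84068136). Rfx5, known for control of MHC class II genes, had the highest fold enrichment of all 58 genes, 57.1 (382 tags, chr3:94952961-94955217). Foxj1 had 28.9 from 189 tags over 1849 bp (chr11:116334707-116336555) at an end of the gene, above all 10 motile start peaks and below the 6 marked Rfx genes. Rfx6, a factor of pancreatic islet cells, and Rfx8 had no peak. With only the ends of each gene in the table counted, 4 of 9 regulators were marked, since Rfx1, Rfx3 and Rfx5 start inside their table entry.

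Transport and motile genes also differ in the base composition of their starts, which the rule did not use. Vertebrate promoters rich in CpG dinucleotides carry H3K4me3 in most cells. A start region of 300 bases (250 before and 50 from the start onwards, from RefSeq on GRCm38.p6, the assembly named mm10) was called CpG-rich at an observed to expected CpG ratio of at least 0.6 and a GC content of at least 50%. By this measure 16 of 19 transport regions (84.2%), 7 of 8 regulator regions, 6 of 24 motile regions (25%) and 45.8% of 17486 coding regions were CpG-rich. The median ratio was 0.785 for transport, 0.868 for regulators and 0.501 for motile genes, against 0.577 for coding genes. It was lowest at Dnah12 (0.0952) and highest at Ift140 (1.21).

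Within each kind of start the counts read differently. Among coding genes, 93.2% of CpG-rich and 28.4% of CpG-poor starts had a peak. Of the 18 CpG-poor motile starts 4 had one (22.2%), near that background. Of the 6 CpG-rich ones 4 had one, with none at the starts of Dnah8 and Tekt2. All 3 CpG-poor transport starts (Bbs4, Ift27 and Ift43) were marked, at 34.7 to 41.2. In strength, coding genes with a start peak had a median fold enrichment of 41.2 where CpG-rich and 32.6 where CpG-poor (quartiles 21.7 and 41.95). The 4 CpG-rich motile genes with a start peak (Rsph3a, Tekt1, Rsph3b and Dnah1) had a median of 15.5 (9.20 to 27.1) and the 4 CpG-poor ones (Dnah7b, Rsph9, Dnah6 and Dnah11) 12.3 (6.51 to 18.1). The part of base composition in the difference between the classes was not tested.

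**Figure D4:**
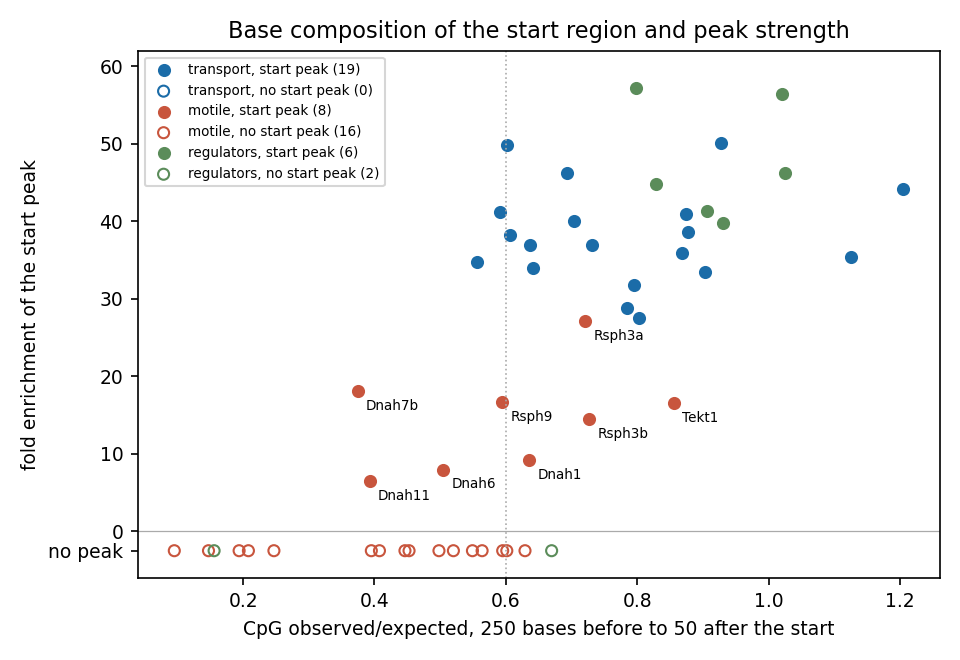
Observed to expected CpG ratio of the 300-base start region (x axis) against fold enrichment of the start peak (y axis) for the 51 members with a RefSeq start region; open circles on the lowest row are genes without a start peak, colours are as in the other plots and the dotted line is the ratio of 0.6. Motile points lie low on both sides of the line, and 16 of the 18 genes without a start peak are motile.

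The start regions were searched on both strands for sequences tied to the 2 regulator families. A single arm of the X-box, GTTGCC, occurred in 12.8% of coding start regions, in 8 of 19 transport regions (42.1%), in 8 of 24 motile regions (33.3%) and in 4 of 8 regulator regions. The full X-box, GTTNCC and GGNAAC with 2 bases between them, occurred in 0.412% of coding regions and in 1 member, Bbs7. The forkhead motif GTAAACA occurred in 2.93% of coding regions, in no transport region, in 2 of 24 motile regions (Dnah17 and Tekt3) and in Rfx8. After the sequences had been read, a looser inverted repeat of 13 letters, GTTNC and GNAAC with 3 bases between them, and its form of 14 letters, with 4 bases between them, were added, prompted by the regions of Dnah7a, Dnah7b, Dnah7c, Tekt2, Ift57 and Bbs7. The shorter form occurred in 0.949% of coding regions and in 8 of 24 motile regions (Dnah6, Dnah7a, Dnah7b, Dnah7c, Dnah9, Rsph3b, Tekt2 and Tekt4), 3 of which are close copies, and in 1 of 19 transport regions (Ift57). The longer form, which contains every full X-box, occurred in 0.984% of coding regions, in Bbs7 and in Tekt4, where it begins at the start base, past the bases shown for that gene. A match is a stretch of letters and not a bound site.

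Start peaks were counted with and without these letters. Of the 8 motile genes with the shorter repeat, 3 had a start peak (Dnah6, Dnah7b and Rsph3b), and of the 16 without it 5 did. Coding genes with it had a start peak in 53.6% and those without it in 58.1%. With the single arm, 3 of 8 motile genes were marked at the start, and 5 of 16 without it, while all 8 transport genes with it and all 11 without it were marked. The shares over coding genes were 59.1% with the arm and 57.8% without it.

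Some of the start regions are shown as the 250 bases before the start, 5′ to 3′ on the gene's strand, with capitals over the single arm on either strand and over both repeats. The first pair are transport genes with a start peak, Bbs7 (chr3:36613390-36613639, minus strand) with the full X-box and Ift57 (chr16:49699044-49699293, plus strand) with the single arm at 2 places and the shorter repeat. Tekt2 (chr4:126325689-126325938, minus) and Tekt4 (chr17:25471340-25471589, plus) are motile genes with the repeat and no start peak.

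Bbs7: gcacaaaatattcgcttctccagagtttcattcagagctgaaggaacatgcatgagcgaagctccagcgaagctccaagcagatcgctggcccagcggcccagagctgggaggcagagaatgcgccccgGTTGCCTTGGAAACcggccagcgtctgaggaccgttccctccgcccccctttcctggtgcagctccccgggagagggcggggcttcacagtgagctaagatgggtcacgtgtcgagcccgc

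Ift57: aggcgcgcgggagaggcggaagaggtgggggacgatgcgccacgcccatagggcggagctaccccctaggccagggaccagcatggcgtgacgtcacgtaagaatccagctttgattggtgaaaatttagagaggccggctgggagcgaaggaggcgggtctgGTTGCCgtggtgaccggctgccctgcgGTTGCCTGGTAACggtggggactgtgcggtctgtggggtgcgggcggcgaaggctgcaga

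Tekt2: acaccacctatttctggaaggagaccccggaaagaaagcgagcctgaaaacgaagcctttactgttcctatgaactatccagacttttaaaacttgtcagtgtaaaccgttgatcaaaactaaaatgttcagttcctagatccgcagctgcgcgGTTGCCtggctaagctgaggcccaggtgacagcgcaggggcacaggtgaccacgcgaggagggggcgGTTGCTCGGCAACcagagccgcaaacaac

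Tekt4: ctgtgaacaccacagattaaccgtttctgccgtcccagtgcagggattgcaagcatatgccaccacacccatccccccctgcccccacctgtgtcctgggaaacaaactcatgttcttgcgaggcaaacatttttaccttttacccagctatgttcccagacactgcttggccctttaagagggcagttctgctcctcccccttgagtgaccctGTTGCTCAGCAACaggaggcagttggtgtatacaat

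The dynein genes come next, to set copies with and without a peak side by side. Dnah6 (chr6:73221632-73221881, minus) and Dnah7b (chr1:46066603-46066852, plus) had a weak start peak. Dnah7a (chr1:53706785-53707034, minus) and Dnah7c (chr1:46425268-46425517, plus), the close copies of Dnah7b, had none, though all 3 hold the same 13 letters, GTTGCTTAGCAAC. Of the 300-base regions, Dnah7a and Dnah7c were identical in 84.7% of 300 aligned columns, Dnah7a and Dnah7b in 77.8% of 275 and Dnah7b and Dnah7c in 76.7% of 258, with unaligned ends left out. Whether reads from 1 copy were lost or placed at another was not tested. Dnah12 (chr14:26691304-26691553, plus) is the member with the fewest CpG dinucleotides, 1 in the bases shown, and it had no peak and none of the X-box sequences.

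Dnah6: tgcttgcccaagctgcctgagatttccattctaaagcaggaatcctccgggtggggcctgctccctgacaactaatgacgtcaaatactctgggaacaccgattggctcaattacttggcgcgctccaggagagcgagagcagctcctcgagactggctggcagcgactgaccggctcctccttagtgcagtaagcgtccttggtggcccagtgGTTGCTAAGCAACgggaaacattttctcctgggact

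Dnah7a: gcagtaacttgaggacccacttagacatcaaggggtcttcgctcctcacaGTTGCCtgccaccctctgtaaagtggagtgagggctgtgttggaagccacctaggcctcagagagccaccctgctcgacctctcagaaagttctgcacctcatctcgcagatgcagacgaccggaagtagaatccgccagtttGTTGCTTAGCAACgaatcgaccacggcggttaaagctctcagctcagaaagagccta

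Dnah7b: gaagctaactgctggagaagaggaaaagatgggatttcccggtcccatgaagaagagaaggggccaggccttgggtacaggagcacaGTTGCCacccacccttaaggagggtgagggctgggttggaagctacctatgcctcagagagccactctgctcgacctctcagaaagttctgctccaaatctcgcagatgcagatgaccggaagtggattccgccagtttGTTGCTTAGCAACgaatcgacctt

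Dnah7c: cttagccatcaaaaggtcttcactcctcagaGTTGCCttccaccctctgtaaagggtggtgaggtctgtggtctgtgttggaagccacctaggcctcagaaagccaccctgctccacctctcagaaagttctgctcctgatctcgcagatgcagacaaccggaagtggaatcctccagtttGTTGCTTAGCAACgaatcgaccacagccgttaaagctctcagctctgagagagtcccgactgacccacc

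Dnah12: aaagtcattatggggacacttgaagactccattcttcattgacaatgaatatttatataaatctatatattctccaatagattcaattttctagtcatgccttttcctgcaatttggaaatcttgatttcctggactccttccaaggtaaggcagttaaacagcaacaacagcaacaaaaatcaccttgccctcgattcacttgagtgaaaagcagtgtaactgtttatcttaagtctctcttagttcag

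Other cilium genes, from 10 lists holding 106 genes, were read in the same way. Start peaks are counted here against the 57.5% of all coding genes. For listed genes without a RefSeq start, a peak at either end of the gene was counted, as for the members. All 17 transition zone genes, which form the gate at the base of the cilium, had one, from Cc2d2a (27.5) to Tmem237 (49.2), as did all 11 basal body genes, from Ofd1 (24.6) to Odf2 (57.2), and all 8 subunits of the IFT motors, from Dync2h1 (22.4), the retrograde dynein heavy chain, to Kif3a (48.5), of the anterograde kinesin. IFT and BBSome subunits listed under other symbols had one in 14 of 15, from Ttc30b (21.8) to Hspb11 (52.8), and Ttc30a2, which has a close copy in Ttc30a1, had no peak. Of 10 genes of the ciliary membrane and the hedgehog relay, 8 had one, from Adcy3 (24.1) to Smo (52.1), the hedgehog signal transducer. Gpr161, a brake on that pathway, had its peak off the start (30.1), and the receptor gene Sstr3 had none.

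Genes that build the motile axoneme were more mixed. Of the 8 central pair genes 3 had a start peak, Cfap46 (39.8), Cfap221 (26.8) and Cfap54 (11.6), while Hydin, Spag6l, Spag16, Spag17 and Spef2 had no peak. Of 9 dynein arm assembly factors 7 had one, from Zmynd10 and Lrrc6 (10.1 each) to Dnaaf2 (48.5), Spag1 had a peak elsewhere and Dnaaf6 had none. Of 8 genes for arm docking and the dynein regulatory complex 6 had one, from Drc1 (10.1) to Ccdc151 (57.1), and Ccdc114 and Armc4 had none. Over these 3 lists, 6 of the 16 start peaks also lay at the start of another coding gene, with values of 31.5 to 57.1 and a median of 40.1. The 10 that did not had a median of 19.4, and 8 of the 10 were under 29.7. Among these 10 genes, Cfap54, Lrrc6 and Ttc25 have no RefSeq start, so a peak at either end of the gene was counted. Cfap54 and Lrrc6 also had a stronger peak elsewhere over the gene plus 1 kb, of 38.3 and 15.2. Among the 17 transition zone genes the shared and unshared start peaks had medians of 36.9 (5 genes) and 37.8 (12 genes), and among the 11 basal body genes 33.99 (3 genes) and 45.9 (8 genes).

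Of 9 regulators of multiciliation 7 had a start peak. Mcidas, which switches on the multiciliated programme, had 10.9 from 41 tags, its neighbour Ccno 27.5 and Cdc20b 18.1, while E2f4 reached 45.4 and Trp73 37.9, both in peaks shared with another start. E2f5 (33.99, 408 tags) and Myb (32.6, 536 tags) had peaks not shared with another start. E2f4 and E2f5 have no RefSeq start, so their peaks were counted at either end of the gene. Mcidas and Cdc20b also had a stronger peak off the start, of 20.97 and 29.7. Gmnc, which acts above Mcidas, and Deup1, of the deuterosomes that multiply centrioles, had no peak. Of 11 other dynein subunits, light chains and cytoplasmic dynein included, 9 had a start peak, from Dynlrb2 (12.2), of motile cilia, to Dync1i2 (51.4), of cytoplasmic dynein. Of the axonemal intermediate chains, added after their symbols were found to fall outside the rule, Dnaic1 had 46.3 at a start shared with Fam219a, Dnaic2 had 11.7 from 58 tags and Nme8 had a peak off the start (7.59).

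**Figure D5:**
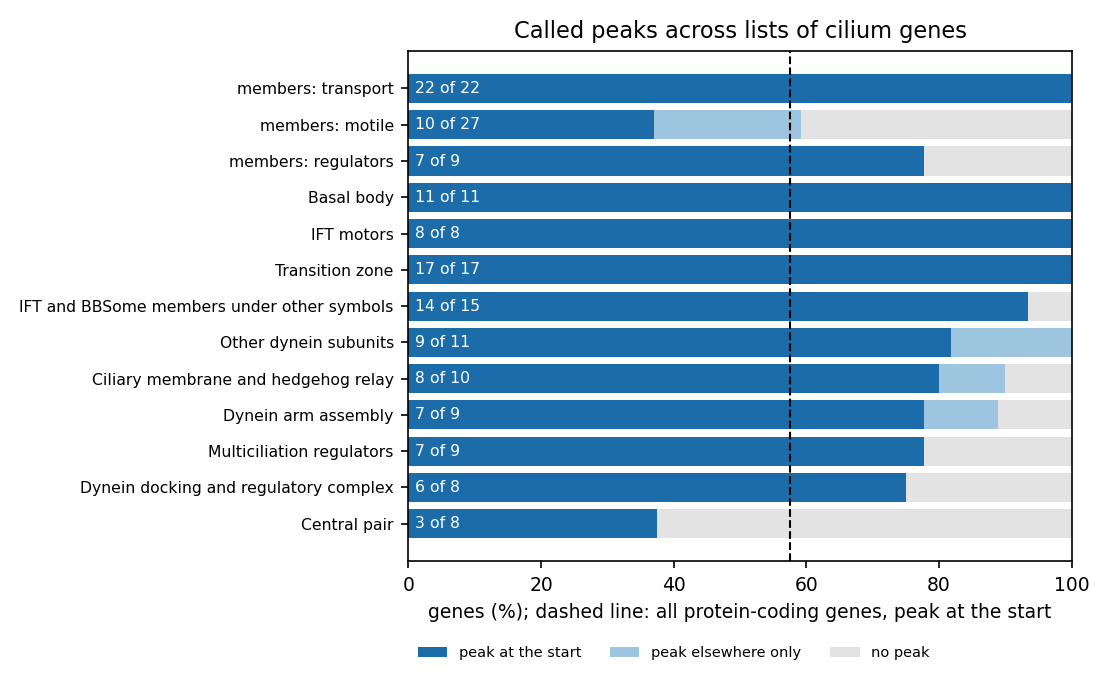
Share of genes (x axis, %) with a peak at the start (dark blue), elsewhere over the gene plus 1 kb (light blue) or no peak (grey), for the member classes (first 3 rows) and 10 further lists of cilium genes; digits count genes with a start peak. The dashed line is the share of all protein-coding genes with a start peak, 57.5%; the motile members and the central pair genes lie below it and the other rows above.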

How the data were processed

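H3K4me3 ChIP-seq peaks of 1 library, called against 1 input library, were analysed. Per the submitters' processing notes the build was mm10 (aligner: not given in the sources used here). Peaks were called with MACS 1.4.2 at a p cutoff of 1e-05 with at most 1 tag per position, per the file headers, whereas the submitters' processing notes name MACS2 2.1.0. The deposited columns are the tag count per peak, not normalized, a score of 10 times -log10 p, the fold enrichment over input as a ratio, a percent false discovery rate, which was not used, and positions in bp; all are the authors' values for 1 unpooled library. Capping tags at 1 per position limits counts in strong peaks.

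Peaks on chromosomes 1 to 19, X and Y were joined to RefSeq genes and start regions of GRCm38.p6 with Python 3.11.15, pandas 2.3.3 and SciPy 1.17.1. Marked meant a peak overlapping the gene plus 1 kb by 1 bp, and marked at the start a peak within 1 kb of a RefSeq start (either gene end where none was given). The most upstream start served base composition and motifs. Overlap and motif code was tested on simulated data. Intervals are exact (Clopper-Pearson, 95%).

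Members and gene lists were chosen with earlier results of these data known. The rule for genes named was every member by name, values for all marked members, and the extremes and unmarked genes of the other lists; further genes of those lists were named after their values were seen. Alternatives covered window, overlap, peak threshold and shared peaks; those for starts, and the inverted repeats, were added after seeing the data.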

Additional observations from a re-analysis of the deposited data

How the results depend on the processing

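Of 90 recomputed counts and medians over 14 results, 88 stayed within 1.5 times the reported count, or, for medians, within the interval of the median under the original setting. The first exception was transport genes without peaks over another coding gene, 14 of 22 in place of 22. The other was regulators with only 1 kb either side of the gene ends, 4 of 9 in place of 7. These limits are wide, so the count of 88 does not measure robustness. For the 7 marked regulators the interval of the median is their full range, 28.9 to 57.1. The share of all coding genes, 46.4% without peaks over another coding gene in place of 61.5%, counted as unchanged. Start peaks were found at 17 to 22 transport genes and 8 to 11 motile genes over the added settings, where the median start-peak fold enrichment stayed at 36.9 for transport and ranged from 15.5 to 16.99 for motile genes. The median of the strongest peak over the gene plus 1 kb, 38.4 for transport and 17.7 for motile genes, ranged from 35.8 to 38.4 and from 16.6 to 19.2. Depth limits the weakest start peaks of members, at Dnah6 and Dnah11, which rest on 28 and 30 tags. Internal peaks of Ift57 (fold enrichment 5.17, 27 tags) and Rfx3 (23 and 29 tags) had lower -log10 p values still. No paired analysis was possible because there is 1 library of each kind.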
